A study of Mus musculus with 12 samples.

Results

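The levels of 8 genes of the smooth muscle contractile apparatus were followed across 12 mouse heart libraries: Acta2, Actg2, Myh11, Mylk, Tagln, Cnn1, Smtn and Lmod1. They were chosen by symbol as genes of smooth muscle contraction, and 8 of 8 were found among the 17379 genes of the deposited table. All 8 passed the filter on low counts that left 13849 genes for testing. The libraries were mRNA of hearts from mice aged 6 months, 3 in each of 4 genotype groups on a C57BL background, with no other treatment given in the labels. Compound mice were heterozygous for HRC S96A, a substitution in the histidine-rich protein that buffers calcium in the sarcoplasmic reticulum, and homozygous for a 25 bp deletion in MYBPC3, which encodes cardiac myosin-binding protein C. The second group carried the homozygous MYBPC3 deletion alone, the third the heterozygous HRC variant alone, and the last was nontransgenic (C57BL/WT). All compound and all HRC variant mice were female, while the MYBPC3 deletion and nontransgenic groups each held 2 males and 1 female, replicate 3 of each. The labels name neither the promoter of any transgene, nor the number of founder lines, nor which chambers of the heart were taken, and they do not say whether a library is 1 animal or a pool, so the p-values speak only to the variation among these libraries.

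Smooth muscle of the vessel wall contracts when calcium and calmodulin activate myosin light chain kinase, which phosphorylates the regulatory light chain of smooth muscle myosin and lets it pull on actin filaments. In the heart, these proteins mark the contractile cells of coronary arteries and of the roots of the great vessels, and some of them are also made in activated fibroblasts and in immature heart muscle. Many of their genes are driven by serum response factor with its coactivator myocardin, which bind a DNA element called the CArG box.

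Depth was similar across the libraries, with 15615189 to 20581196 reads per library. Levels are given as CPM, read counts per library size after scaling by trimmed mean of M values. The heart muscle genes Myh6 and Actc1, the alpha myosin heavy chain and cardiac actin, lay at 4220 to 8560 and at 14600 to 22500 TPM, the authors' measure per transcript length, over all libraries, so the defining genes of the labelled tissue were present in each. Atrial muscle markers set 4 libraries apart from the other 8. Sln, an atrial regulator of the calcium pump, had 8.49, 1.26 and 99.4 TPM in compound libraries 1 to 3 and 1.42 TPM in HRC variant replicate 3, and 493 to 1880 TPM in every other library. The values with the atrial level added to the model stand beside the comparisons of compound hearts.

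Acta2 encodes the smooth muscle alpha actin, the most abundant actin of arterial smooth muscle. Promoter sequence from RefSeq (GRCm38.p6) was found for 5 of the 8 genes, Acta2, Cnn1, Smtn, Mylk and Lmod1. Because the 8 genes varied together, Smtn least, the 250 bases before the start that RefSeq gives each were searched on both strands. The search was for the CArG box, which reads the same on either strand in its general form. Copies with 1 G or C inside its core of A and T were also searched for. No exact box was found in any of the 5. The Acta2 promoter held 2 copies with 1 changed base, shown in capitals, at 84 to 75 and at 34 to 25 bases before that start. The searched bases lie partly inside the gene span of the deposited table for Acta2 (212 of 250) and Cnn1 (32), wholly inside it for Smtn and Mylk, and just outside it for Lmod1. Of 32851 RefSeq promoters of the same length, 1.47% held an exact box and 8.59% held an exact box or a copy with 1 changed base. The Acta2 sequence lies at chr19:34255374-34255623 on the minus strand. It is shown with Cnn1 (chr9:22099003-22099252, plus strand), the gene that varied most, and Lmod1 (chr1:135324563-135324812, plus strand), in which neither form was found.
Acta2: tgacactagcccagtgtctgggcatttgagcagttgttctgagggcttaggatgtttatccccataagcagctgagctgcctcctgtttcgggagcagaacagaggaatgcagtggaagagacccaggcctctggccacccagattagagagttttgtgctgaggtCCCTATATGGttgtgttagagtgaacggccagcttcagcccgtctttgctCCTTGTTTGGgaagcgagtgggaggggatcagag
Cnn1: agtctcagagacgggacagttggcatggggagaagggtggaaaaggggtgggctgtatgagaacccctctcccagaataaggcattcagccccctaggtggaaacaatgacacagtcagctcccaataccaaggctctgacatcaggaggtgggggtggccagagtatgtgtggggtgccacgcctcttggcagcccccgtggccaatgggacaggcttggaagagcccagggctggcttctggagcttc
Lmod1: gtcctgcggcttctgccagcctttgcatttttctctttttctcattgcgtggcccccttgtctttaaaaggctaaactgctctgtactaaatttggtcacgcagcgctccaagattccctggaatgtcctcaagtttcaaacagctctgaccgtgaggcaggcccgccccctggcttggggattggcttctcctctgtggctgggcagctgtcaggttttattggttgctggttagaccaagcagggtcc

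The actin genes differed between libraries by up to 24.2-fold, Actg2 more than Acta2. Acta2 (gene 11475; GRCm38.p6 chromosome 19, 34240336 to 34255585, minus strand) had 112, 156 and 246 CPM in compound hearts, 977, 303 and 309 CPM with the MYBPC3 deletion, 458, 320 and 204 CPM with the HRC variant, and 169, 231 and 473 CPM in nontransgenic hearts. MYBPC3 deletion replicate 1 was the highest of the 12 libraries and compound replicate 1 the lowest, an 8.75-fold span. The compound libraries all lay below the MYBPC3 deletion libraries and overlapped the other 2 groups. Group means were 171 ± 68.5 CPM in compound hearts, 530 ± 388 with the deletion, 327 ± 127 with the HRC variant and 291 ± 161 in nontransgenic hearts (SD, n = 3 each). Actg2 (gene 11468; chromosome 6, 83512909 to 83536251, minus strand), the gamma actin best known from visceral smooth muscle, had 11 to 233 reads per library, against 2020 to 15474 for Acta2. It had 0.608, 1.07 and 1.06 CPM in compound hearts, 14.7, 3.36 and 1.70 CPM with the deletion, 2.87, 1.46 and 1.05 CPM with the HRC variant, and 0.953, 2.21 and 4.38 CPM in nontransgenic hearts. The compound libraries lay below all deletion libraries and overlapped the other groups. Both genes encode proteins near-identical to the product of the cardiac actin gene Actc1, which was far more abundant. How any reads shared between these genes were counted is not stated in the labels or headers. The levels of Acta2 and Actg2 are uncertain to that extent.

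Of the myosin pair, Myh11 varied more widely than the kinase Mylk. Myh11 (gene 17880; chromosome 16, 14194527 to 14291408, minus strand), the smooth muscle myosin heavy chain, had 38.4, 42.6 and 48.9 CPM in compound hearts, 273, 70.7 and 42.5 CPM with the deletion, 99.3, 80.6 and 38.7 CPM with the HRC variant, and 50.4, 63.0 and 120 CPM in nontransgenic hearts. All 3 compound libraries lay below all 3 nontransgenic libraries, while replicate 3 of each single mutant lay among the compound libraries. Mylk (gene 107589; chromosome 16, 34745199 to 35002436, plus strand), the myosin light chain kinase, had 32.5, 29.5 and 30.3 CPM in compound hearts, 59.1, 41.1 and 26.7 CPM with the deletion, 48.6, 36.3 and 29.8 CPM with the HRC variant, and 27.0, 36.7 and 48.0 CPM in nontransgenic hearts. Its compound libraries overlapped every other group, and its highest library was 2.22-fold above its lowest.

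The actin-binding genes Tagln and Cnn1 spanned a wide range, and Smtn the narrowest of the 8. Tagln (gene 21345; chromosome 9, 45929628 to 45936058, minus strand), which encodes transgelin (SM22), had 29.7, 37.5 and 36.3 CPM in compound hearts, 397, 120 and 49.7 CPM with the deletion, 145, 71.1 and 32.1 CPM with the HRC variant, and 39.6, 63.8 and 150 CPM in nontransgenic hearts. Its compound libraries lay below all deletion and all nontransgenic libraries. Cnn1 (gene 12797; chromosome 9, 22099221 to 22109221, plus strand) encodes calponin, which slows the myosin motor on actin, and had 1.55, 1.29 and 3.08 CPM in compound hearts, 61.1, 11.9 and 4.20 CPM with the deletion, 18.7, 8.37 and 2.39 CPM with the HRC variant, and 3.69, 9.40 and 18.1 CPM in nontransgenic hearts. The compound libraries again lay below all deletion and all nontransgenic libraries, and HRC variant replicate 3 lay among the compound libraries. The highest Cnn1 library was 47.3-fold above the lowest, the widest span of the 8 genes. Smtn (gene 29856; chromosome 11, 3517522 to 3539654, minus strand), which encodes the actin-binding protein smoothelin, had 161, 162 and 169 CPM in compound hearts, 238, 200 and 162 CPM with the deletion, 231, 187 and 187 CPM with the HRC variant, and 231, 163 and 190 CPM in nontransgenic hearts. Its compound libraries lay below the HRC variant libraries alone, within a total span of 1.48-fold.

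Lmod1 (gene 93689; chromosome 1, 135324813 to 135368065, plus strand) encodes leiomodin, which starts new actin filaments in smooth muscle. It had 4.87, 5.22 and 4.87 CPM in compound hearts, 53.4, 10.2 and 6.96 CPM with the deletion, 16.6, 14.3 and 6.44 CPM with the HRC variant, and 6.91, 6.73 and 20.6 CPM in nontransgenic hearts. Every compound library lay below every library of the other 3 groups, the one gene of the 8 for which this held. Taken group by group, 10% of all tested genes lay so against nontransgenic, 13.7% against deletion and 6.22% against HRC variant hearts. The share of all genes below all 3 groups was not counted.

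**Figure D1:**
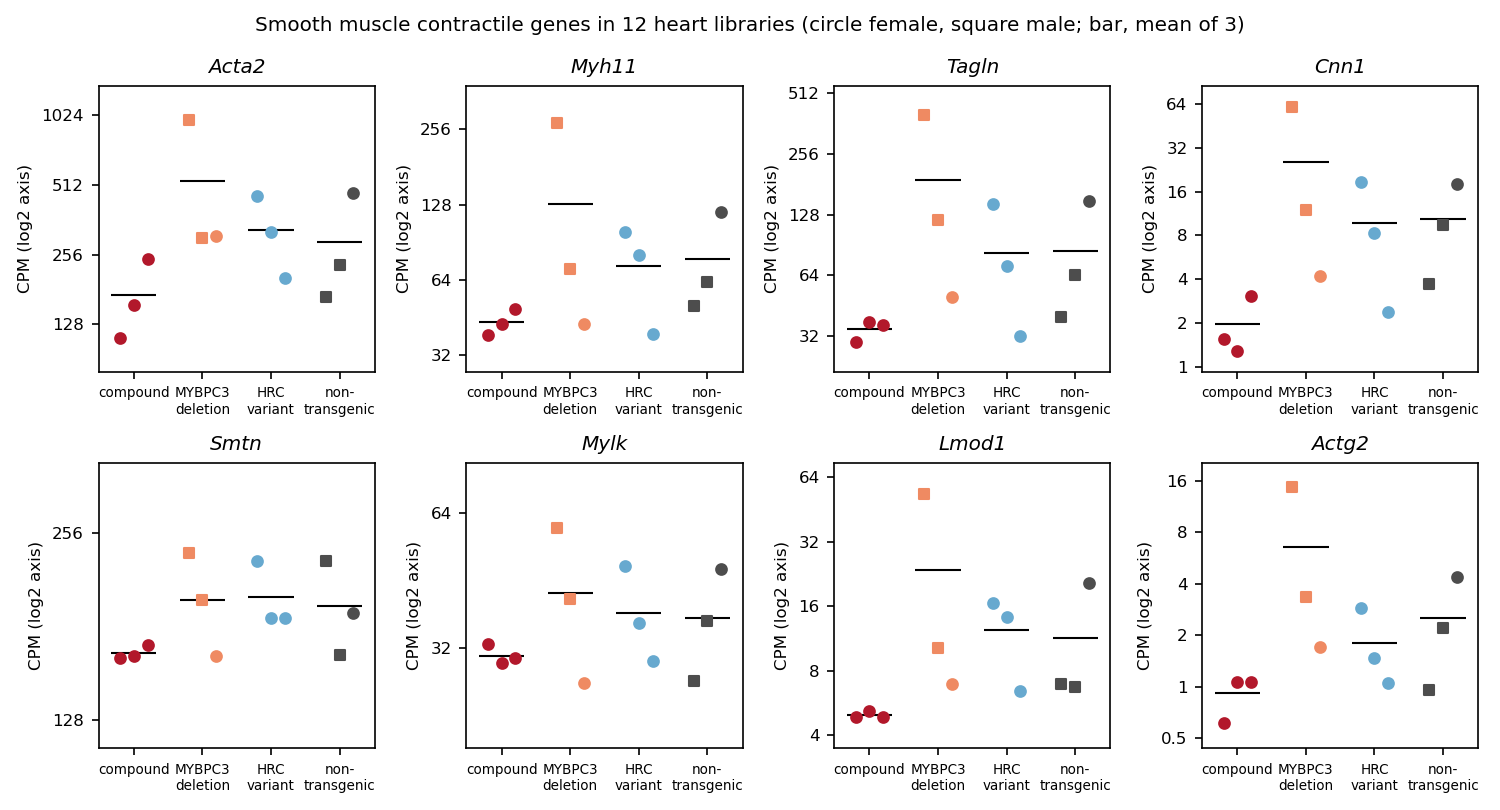
CPM of the 8 genes on log2 axes, with 1 point per library (circles female, squares male) and a bar at the mean of the 3 libraries of each group. MYBPC3 deletion replicate 1 is the highest library for 8 of 8 genes, and the compound libraries of Lmod1, at 4.87 to 5.22 CPM, lie below all others.

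Per transcript length, Acta2 was the most abundant of the 8 in 10 of the 12 libraries. Its TPM had a lowest value of 78.4, a median of 168 and a highest of 619. Smtn followed with 83.3, 91.7 and 118 TPM, then Tagln with 33.8, 66.6 and 415 TPM, and Myh11 with 12.2, 18.3 and 91.9 TPM. Mylk (median 9.21 TPM) and Cnn1 (8.59) changed places between libraries, as did Lmod1 (3.15) and Actg2 (2.31), Acta2 and Smtn, and Smtn and Tagln. The order of these neighbours was thus not the same in every library. Cnn1 also stood below Lmod1 in compound replicates 1 and 2, and Mylk stood last in MYBPC3 deletion replicate 1. Myh11 stood next below Acta2, Smtn and Tagln in all 12. In compound replicate 1 and nontransgenic replicate 1, Smtn stood first and Acta2 next. The ratio of Acta2 to Smtn in TPM reached 5.27 in MYBPC3 deletion replicate 1 and was 0.919 in compound replicate 1.

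The 8 genes varied between libraries of the same genotype more than most genes did, with the exceptions of Smtn and, in part, Mylk. The within-group SD of log2 CPM had a median of 0.255 over the 13849 tested genes. It was 1.38 for Cnn1, at the 98.6th percentile of those genes, 1.05 for Tagln (96.4), 1.02 for Actg2 (96.2), 0.971 for Lmod1 (95.4), 0.848 for Myh11 (93.6) and 0.740 for Acta2 (91.2). It was 0.397 for Mylk (74.6) and 0.208 for Smtn (36.4). This spread is the error against which each group difference has to be read.

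**Figure D2:**
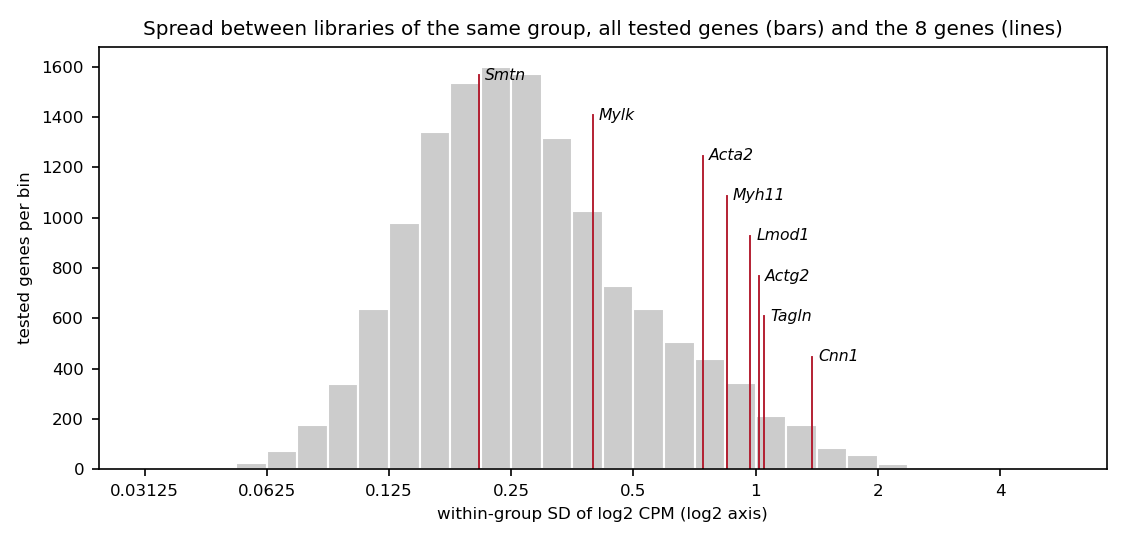
Number of tested genes (vertical axis) by the SD of log2 CPM between libraries of the same group (log2 horizontal axis), with lines for the 8 genes. Cnn1 lies farthest right at 1.38 and Smtn, at 0.208, is the one line left of the median of 0.255.

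The libraries took a similar order whichever of the 8 genes was read, Smtn excepted. With each gene's log2 CPM centred on its mean over the 12 libraries, the mean over the 8 genes was 1.99 in MYBPC3 deletion replicate 1, 0.85 in nontransgenic replicate 3, 0.74 in HRC variant replicate 1 and 0.37 in MYBPC3 deletion replicate 2. The middle libraries were HRC variant replicate 2 at 0.13, nontransgenic replicate 2 at -0.06, MYBPC3 deletion replicate 3 at -0.36 and nontransgenic replicate 1 at -0.53. The lowest were compound replicate 3 at -0.60, HRC variant replicate 3 at -0.68, and compound replicates 2 and 1 at -0.85 and -1.02. As a description over the 12 libraries, which share their group structure, each gene's Pearson r with the mean of the other 7 was 0.982 for Tagln, 0.974 for Myh11, 0.965 for Lmod1, 0.963 for Cnn1, 0.939 for Actg2, 0.923 for Acta2 and 0.902 for Mylk, and 0.647 for Smtn. Without MYBPC3 deletion replicate 1 these were 0.842 to 0.967 for the first 7 genes and 0.481 for Smtn.

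Compound hearts were compared with nontransgenic hearts to see what both alterations together do. In compound hearts 4 of the 8 genes, Myh11, Tagln, Cnn1 and Lmod1, lay below nontransgenic hearts in all 3 libraries against all 3, where 10% of all tested genes did so, and 0 of 8 lay above in all, where 8.79% did. The fitted log2 difference was negative for 8 of 8, with a median of -1.06, against a median of 0.00 over all genes with 50.3% of them negative. It was -2.31 (SE 1.35) for Cnn1, -1.43 (SE 0.90) for Actg2, -1.31 (SE 0.99) for Tagln, -1.23 (SE 0.94) for Lmod1, -0.89 (SE 0.69) for Acta2 and -0.76 (SE 0.81) for Myh11. Mylk at -0.22 (SE 0.33) and Smtn at -0.09 (SE 0.18) differed least. None passed edgeR's quasi-likelihood test, with adjusted p between 0.869 and 0.992; nor did any other gene (0% called), while 881 genes (6.36%), with 0 of the 8 among them, had an unadjusted p under 0.05. DESeq2 in the same model called 38 genes (0.274%), again with 0 of the 8.

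The authors' deposited table, per its headers from DESeq2, lists Cnn1 at a log2 fold change of -2.40 for compound over nontransgenic hearts with a q-value of 0.000381, among 407 of 16747 genes (2.43%) with a q-value under 0.05. Myh11, at -0.84 with a q-value of 0.0612, did not reach that threshold in the authors' deposited table, nor did the other 6. When DESeq2 was run on these 2 groups alone without a sex term, a setting added after the data were seen, it called Cnn1 (adjusted p = 0.000292) among 456 genes (3.44%), whereas over the other 21 settings the adjusted p of Cnn1 lay between 0.584 and 1. Without MYBPC3 deletion replicate 3 the median was -1.75. Females alone, with 1 nontransgenic library, gave values from -3.20 for Cnn1 to -0.21 for Smtn. The fitted direction depended on nontransgenic replicate 3, the only nontransgenic female. Without it, the fitted log2 differences of all 8 genes were positive, with a median of 1.51. The sex term then rests on the MYBPC3 deletion group alone. In plain CPM, the compound libraries of Myh11, Tagln, Cnn1 and Lmod1 also lay below nontransgenic replicates 1 and 2, both male. With the atrial level as a further term, also added after the data were seen, the median was 0.15 and 5 of 8 differences were positive. In that fit the SEs of the 8 genes ran from 0.26 for Smtn to 1.59 for Cnn1. All 3 compound libraries were low in atrial markers, so this fit can hardly tell group and atrial level apart.

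Compound hearts were next compared with each single mutant. Against the MYBPC3 deletion, 5 of 8 genes (Acta2, Tagln, Cnn1, Lmod1 and Actg2) were lower in all 3 compound libraries than in all 3 deletion libraries, where 13.7% of tested genes were. The fitted log2 differences had a median of -2.07, against 0.01 over all genes, and reached -3.49 (SE 1.72) for Cnn1, -2.76 (SE 1.10) for Actg2, -2.49 (SE 1.29) for Tagln, -2.31 (SE 1.19) for Lmod1 and -1.84 (SE 0.81) for Acta2. Myh11 gave -1.41 (SE 1.00), Mylk -0.39 (SE 0.37) and Smtn -0.11 (SE 0.19). By edgeR 0 genes were called (0%), the smallest adjusted p among the 8 being 0.862. Unadjusted, edgeR gave 794 genes (5.73%) a p under 0.05, of which Actg2 was the only one among the 8, with 0.0293. DESeq2 in the same model called 6 genes (0.0433%) and none of the 8.

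In the authors' deposited table Actg2 is listed at -2.84 for compound over MYBPC3 deletion hearts with a q-value of 0.00209, and Cnn1 at -3.69 with a q-value of 0.0212, among 716 of 16882 genes (4.24%). DESeq2 on the 2 groups without a sex term called Actg2 (adjusted p = 0.00108), Cnn1 (adjusted p = 0.0163) and Tagln (adjusted p = 0.0462) among 816 genes (6.12%). Over the other 21 settings the adjusted p was at least 0.229 for Actg2, 0.254 for Cnn1 and 0.272 for Tagln. Without MYBPC3 deletion replicate 1 the median was -1.25, without MYBPC3 deletion replicate 3 it was -3.71, without nontransgenic replicate 3 it was -0.50, and in females alone, with 1 deletion library, it was -0.51. With the atrial level added it was -0.89.

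Against the HRC variant, where both groups were all female, Lmod1 and Smtn, 2 of 8, were lower in all 3 compound libraries, where 6.22% of tested genes were, and 0 of 8 were higher in all, where 6.2% were. The median of the fitted log2 differences was -0.96, against -0.01 over all genes, with -2.32 (SE 1.25) for Cnn1, -1.32 (SE 0.86) for Lmod1, -1.26 (SE 0.90) for Tagln and -0.98 (SE 0.83) for Actg2. Acta2 gave -0.93 (SE 0.61), Myh11 -0.75 (SE 0.72), Mylk -0.32 (SE 0.28) and Smtn -0.30 (SE 0.15). No gene was called by edgeR (0%), with adjusted p of 0.824 or more for the 8. At an unadjusted p under 0.05 there were 872 genes (6.3%) and 0 of the 8, and DESeq2 called 45 genes (0.325%) and 0 of the 8. The authors' deposited table lists Cnn1 at -2.31 with a q-value of 0.0164 and Lmod1 at -1.31 with a q-value of 0.0242 for compound over HRC variant hearts, among 65 of 16714 genes (0.389%). DESeq2 on the 2 groups alone called Lmod1 (adjusted p = 0.0159) among 75 genes (0.565%), but not Cnn1 (adjusted p = 0.318). Over the other 21 settings the adjusted p of Lmod1 was 0.478 or more. Without HRC variant replicate 1 the median was -0.53, and with the atrial level added it was -0.20.

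The single mutants were compared with the same nontransgenic libraries. With the MYBPC3 deletion no gene of the 8 was separated from nontransgenic hearts in all libraries, lower or higher, against 5.5% and 4.9% of tested genes. The fitted log2 differences were positive for 8 of 8, from 0.02 (SE 0.15) for Smtn to 1.33 (SE 0.87) for Actg2, with a median of 1.01 against 0.00 over all genes. Their edgeR adjusted p lay between 0.742 and 0.989, with 0 genes called (0%). At an unadjusted p under 0.05 there were 1130 genes (8.16%) and 0 of the 8. DESeq2 called 92 genes (0.664%) and 0 of the 8, with no adjusted p given for Actg2. This direction rested on MYBPC3 deletion replicate 1, a male: without it the median was -0.11, with 5 of 8 negative. Within sexes the values were opposed, with a median of 1.95 among males (2 libraries in each group) and -1.42 among females (1 library in each). Leaving out the female of either group gave the male value.

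With the HRC variant the 8 genes lay around the nontransgenic level. None was separated in all libraries, lower or higher, against 3.76% and 4.18% of tested genes. The log2 differences ran from -0.44 (SE 0.87) for Actg2 to 0.21 (SE 0.19) for Smtn, with a median of 0.03 against 0.00 over all genes. Their edgeR adjusted p lay between 0.944 and 0.999, and no gene was called (0%). At an unadjusted p under 0.05 there were 863 genes (6.23%) and 0 of the 8, and DESeq2 called 25 genes (0.181%) and 0 of the 8. With SEs of 0.70 to 1.25 for Acta2, Myh11, Tagln, Cnn1, Lmod1 and Actg2 on the log2 scale, these values do not show that the groups were alike. Without nontransgenic replicate 3 the median was 2.49, and without MYBPC3 deletion replicate 3, the only other female of a mixed group, it was -0.72. The authors' deposited table gives a q-value of 1 for each of the 8 in both comparisons of a single mutant with nontransgenic hearts, where 0.0945% of genes with the deletion and 0.0775% with the HRC variant had a q-value under 0.05. All 3 comparisons with nontransgenic hearts share those libraries.

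**Figure D3:**
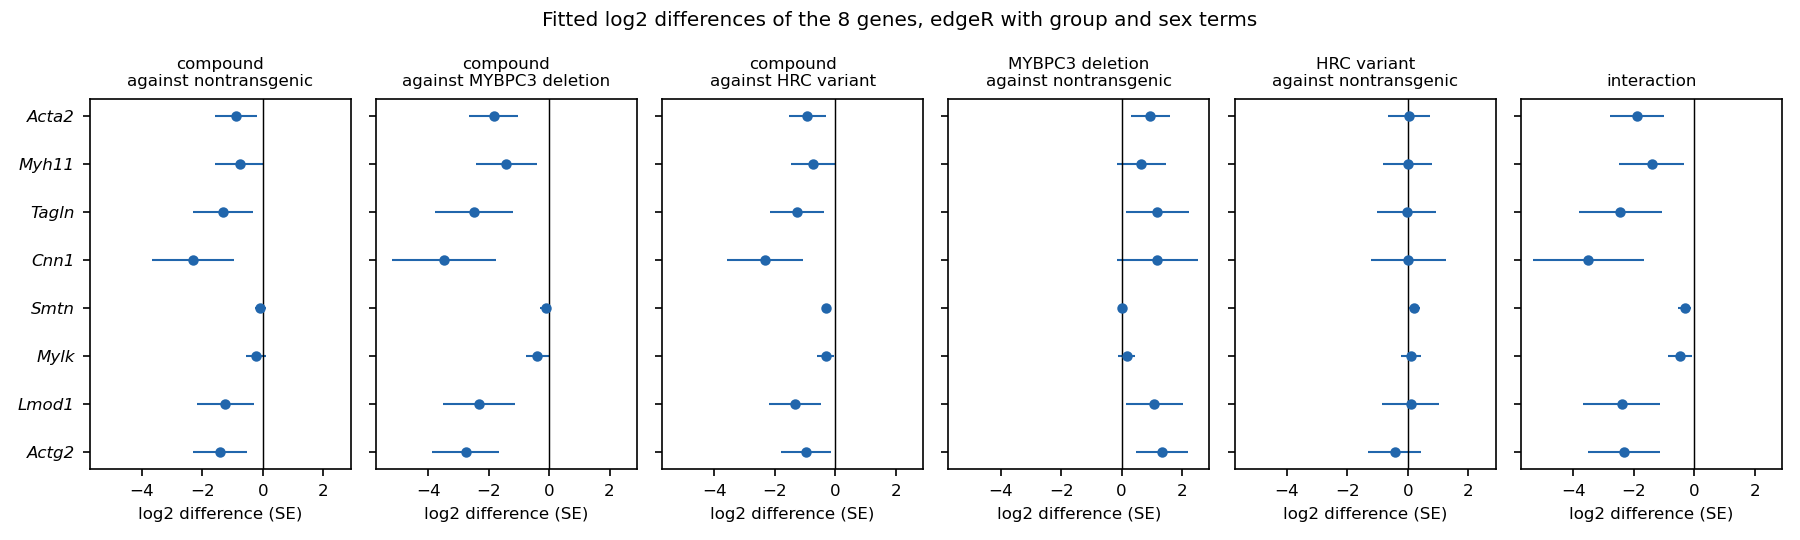
Fitted log2 differences of the 8 genes (points) with 1 SE on each side (bars), in 5 group comparisons and the interaction, from the edgeR model with group and sex. The points of Cnn1 lie farthest from 0 in the comparisons of compound hearts, with the longest bars, and those of Smtn and Mylk lie nearest.

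The interaction asked whether the compound hearts departed from what adding up both single-mutant log2 differences gives. It was negative for 8 of 8 genes, with a median of -2.10, against -0.01 over all genes, of which 51.6% were negative. It was -3.50 (SE 1.84) for Cnn1, -2.44 (SE 1.38) for Tagln, -2.40 (SE 1.28) for Lmod1, -2.31 (SE 1.20) for Actg2 and -1.88 (SE 0.89) for Acta2. Myh11 at -1.40 (SE 1.08), Mylk at -0.48 (SE 0.41) and Smtn at -0.32 (SE 0.22) were nearer to 0. No gene passed edgeR (0%), with adjusted p of 0.622 to 0.765 for the 8. At an unadjusted p under 0.05 there were 1183 genes (8.54%) and 0 of the 8, while DESeq2 called 50 genes (0.361%) and 0 of the 8. DESeq2 gave no adjusted p for Cnn1, Lmod1 and Actg2 here, so these genes could not be called. Without MYBPC3 deletion replicate 1 the median was -1.03, with the atrial level added it was -1.32, and among females it was 0.28, on 1 nontransgenic and 1 deletion library.

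Other genes of smooth muscle, of its regulation and of neighbouring cell types were read from lists, of which no gene was called by edgeR in any comparison. A list of 25 other contractile and cytoskeletal genes varied over the libraries like the 8, with a Pearson r of 0.988 between the levels over 12 libraries, or 0.977 without MYBPC3 deletion replicate 1, again as a description. In compound against nontransgenic hearts 21 of the 25 were negative, with a median log2 difference of -0.20. Pdlim3, an actinin-binding protein of muscle, had 10.8, 13.4 and 11.7 CPM in compound hearts, against 19.3, 30.4 and 32.7 CPM in nontransgenic hearts (log2 difference -1.22, SE 0.40; edgeR adjusted p = 0.662). Tpm2, beta tropomyosin, had 22.0, 20.6 and 32.8 CPM in compound hearts, against 45.1, 82.9 and 94.4 CPM in nontransgenic hearts (-1.54, SE 0.66; edgeR adjusted p = 0.780). Both were named for the smallest p of the list in this comparison. Their compound libraries lay below all nontransgenic libraries, as did those of 10% of all tested genes. With the MYBPC3 deletion 15 of the 25 were positive (median 0.12), among them Cald1, the actin-binding protein caldesmon, at 0.49 (SE 0.21), and with the HRC variant 12 were (median -0.01), with Palld, a cytoskeletal scaffold, at -0.52 (SE 0.19).

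The 10 genes most like the 8 by Pearson r over the 12 libraries, among 11864 genes with a mean log2 CPM of at least 1, were Flna (0.969), Actn1 (0.966), Nov (0.962), Npnt (0.948), Nupr1 (0.929), Col18a1 (0.928), Ctgf (0.912), Myl9 (0.911), Itga8 (0.910) and Ccdc3 (0.906). Likeness was taken to the mean of the 8 genes' standardised log2 CPM, and without MYBPC3 deletion replicate 1 and HRC variant replicate 1, farthest from the median of that mean at 2.44 and 1.20 (nontransgenic replicate 3 was next at 1.18), their r lay between 0.738 and 0.928. Flna, filamin A, which crosslinks actin filaments, had 153, 147 and 158 CPM in compound hearts, 383, 216 and 143 CPM with the deletion, 276, 228 and 152 CPM with the HRC variant, and 186, 206 and 264 CPM in nontransgenic hearts. Nov, a secreted matricellular protein also called CCN3, had 3.76, 2.69 and 3.36 CPM in compound hearts, 64.8, 7.80 and 4.94 CPM with the deletion, 23.3, 13.8 and 3.77 CPM with the HRC variant, and 3.40, 4.88 and 24.2 CPM in nontransgenic hearts. For all 10 the highest library was MYBPC3 deletion replicate 1, as it was for the 8. This follows largely from the choice of the 10 by their likeness to a mean that peaks in that library.

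As a description over the 12 libraries, the level of the 8 genes gave a Pearson r of -0.237 with that of the regulators of serum response factor and 0.223 with that of the RhoA pathway. Without MYBPC3 deletion replicate 1 these were -0.217 and -0.041. The r was 0.673 with smooth muscle channels and receptors, 0.696 with fibroblast markers, 0.693 with elastic fibre genes and 0.692 with atrial markers (0.518, 0.756, 0.784 and 0.785 without MYBPC3 deletion replicate 1). With pericyte markers it was -0.331 and with endothelial markers -0.388 (-0.502 and -0.019 without that library). With visceral and venous smooth muscle genes it was 0.829 and with heart muscle markers -0.605 (0.874 and -0.524 without that library). Of 18 genes of serum response factor and myocardin control, 12 were negative in compound against nontransgenic hearts, with a median of -0.11. Srf itself had 192, 176 and 208 CPM in compound hearts, against 215, 196 and 245 CPM in nontransgenic hearts (log2 difference -0.35, SE 0.14; edgeR adjusted p = 0.696), and the groups overlapped. Myocd, the myocardin gene, named after its values were seen, had 101, 84.4 and 87.9 CPM in compound hearts, against 82.7, 82.4 and 86.3 CPM in nontransgenic hearts. Of 18 genes of the RhoA pathway and myosin phosphorylation, 10 were negative with a median of -0.01, and Ppp1r12c, a targeting subunit of myosin phosphatase, gave the smallest p with a log2 difference of -0.30 (SE 0.15). Of 17 tested genes of smooth muscle channels, receptors and cGMP signalling, 10 were negative with a median of -0.16. Mrvi1, a substrate of cGMP kinase, gave -1.32 (SE 0.48) and Agtr1a, an angiotensin receptor, 0.63 (SE 0.19).

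Pericyte markers, 12 genes of the small-vessel mural cells, had a mean centred log2 CPM of -0.04 to 0.17 in compound hearts, 0.01 to 0.06 with the deletion, -0.09 to 0.06 with the HRC variant and -0.17 to -0.07 in nontransgenic hearts. They summed to 1800 to 1860 CPM in compound hearts, 1480 to 1650 with the deletion, 1320 to 1720 with the HRC variant and 1350 to 1430 in nontransgenic hearts. In compound against nontransgenic hearts 9 of 12 were positive (median 0.26), among them Vtn at 0.58 (SE 0.26). Elastic fibre and large artery wall genes were negative in 11 of 12 (median -0.56), among them Fbln2 at -0.69 (SE 0.20) and Fbln1 at -0.96 (SE 0.32), with a summed level of 1380 to 1580 CPM in compound hearts, 1940 to 2100 with the deletion, 1520 to 3040 with the HRC variant and 1910 to 2380 in nontransgenic hearts. Fibroblast markers summed to 1520 to 1770 CPM in compound hearts, 2380 to 2640 with the deletion, 1640 to 3080 with the HRC variant and 1970 to 2170 in nontransgenic hearts. Endothelial markers summed to 1510 to 1700 CPM in compound hearts, 1460 to 1700 with the deletion, 1580 to 1790 with the HRC variant and 1700 to 2090 in nontransgenic hearts, and in compound against nontransgenic hearts 6 of 12 were positive and 6 negative (median -0.02). Of these 4 lists, Cthrc1, a marker of activated fibroblasts, was the only gene at 0 in a library. In whole-tissue RNA, fewer smooth muscle cells and less RNA per cell cannot be told apart, and the part of these cell types in the levels of the 8 genes was not tested.

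Atrial markers, 12 genes, summed to 1270 to 1780 CPM in compound hearts, 5460 to 8350 with the deletion, 1210 to 11600 with the HRC variant and 5750 to 11900 in nontransgenic hearts. Bmp10, an atrial growth factor gene, was the only one of the 12 at 0, in compound replicate 3. The centred level of the 12 was -2.94 in HRC variant replicate 3, where the 8 genes lay at -0.68, beside the compound libraries. Nppa, the atrial natriuretic peptide gene, had 108, 133 and 254 CPM in compound hearts, against 2030, 4890 and 3590 CPM in nontransgenic hearts (log2 difference -4.52, SE 1.21; edgeR adjusted p = 0.630). Among the 8 libraries that are not low in atrial markers, the 8 genes ran from -0.53 to 1.99, the latter in MYBPC3 deletion replicate 1. The part of atrial content in the levels of the 8 genes was not tested. Heart muscle markers summed to 94400 to 104000 CPM in compound hearts, 81500 to 89400 with the deletion, 82500 to 101000 with the HRC variant and 85000 to 114000 in nontransgenic hearts. Of 8 visceral and venous smooth muscle genes 5 were tested, and Barx1, Foxf1, Hhip and Nkx2-3 were at 0 in at least 1 library. Of the 5 tested, 3 were negative in compound against nontransgenic hearts (median -0.35). The negative ones included Myl4 at -4.84 (SE 2.06), which is also counted among the atrial markers, so this list is not of smooth muscle alone. Across all lists, 7 genes stand in 2 or more. Of 16 tested striated actin and myosin paralogs 9 were negative (median -0.05).

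**Figure D4:**
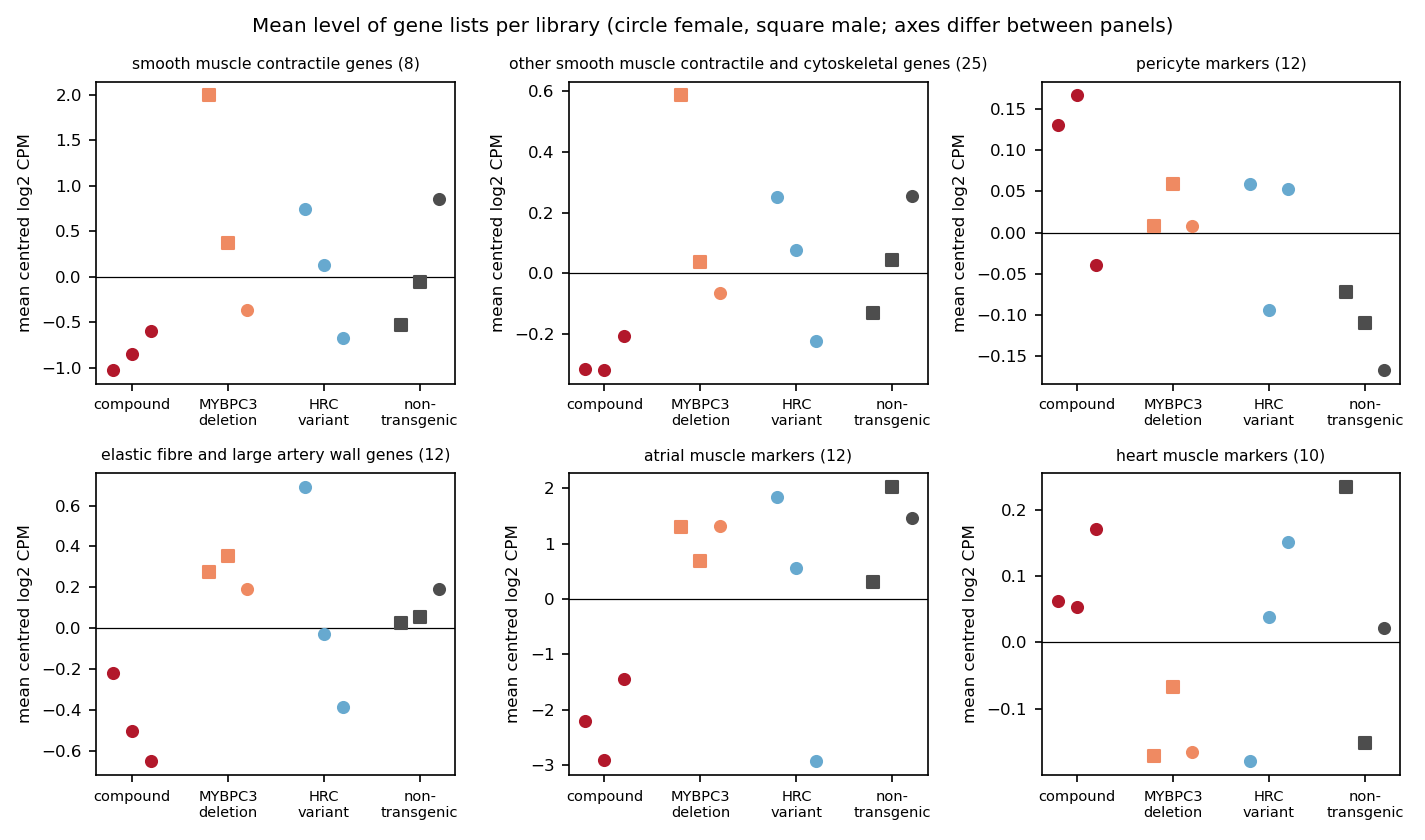
Mean centred log2 CPM per library (points; circles female, squares male) of the 8 genes and of 5 other lists, with the number of tested genes in each title and axes that differ between panels. The other contractile genes follow the 8 at a smaller scale, pericyte markers stay within -0.17 to 0.17, and atrial markers lie at -1.45 or lower in the compound libraries and HRC variant replicate 3.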

How the data were processed

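Gene expression was measured by mRNA sequencing of 12 mouse heart libraries, 3 in each of 4 genotype groups taken from the labels. The authors deposited 1 table with an estimated count (expected count) per gene and library, of which 94.3% of values were exactly whole, and with TPM, a level scaled by transcript length and library size. Per the file headers the same table also holds log2 fold changes between groups and q-values that the authors obtained from DESeq2, which were used only where the text names them, while 12 columns of FPKM were not used here. The build GRCm38.p6 and the tools Bowtie2, HISAT and DESeq2 are named, per the submitters' processing notes. What each tool did, its version, the counter, strand setting and annotation were not given in the sources used here. Of 17380 lines 1 held no values, and 25 symbols turned into dates were restored by gene identifier, of which 17267 matched RefSeq.

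Counts were rounded, and edgeR 4.0.16 (R 4.3.3) was used. The low-count filter at a minimum count of 10 removed 3530 genes. A quasi-likelihood model (robust) with group and sex was fitted over all 12 libraries with TMM factors of 0.8903 to 1.046, which left 7 residual degrees of freedom and a common biological coefficient of variation of 21.5%. A gene was called where its p, adjusted by Benjamini-Hochberg over all 13849 genes, was under 0.05. The script was tested on simulated counts. Log2 CPM for descriptions used a prior count of 2. DESeq2 1.42.0, other scalings and filters, sex subsets, a replicate term and leaving out each library were tried as alternatives. The 8 genes, the 12 other lists and the tests were chosen with earlier results of these data known. Named genes were the 8, up to 2 genes of each list with the smallest p in each comparison with nontransgenic hearts, and the 10 genes most like the 8 by Pearson r. Libraries with the same replicate number were not treated as pairs in the main model, as the labels do not say that they belong together. No 2 libraries held identical values.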

Additional observations from a re-analysis of the deposited data

How the results depend on the processing

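Over 22 settings, 919 of 1008 log2 differences of the 8 genes kept their direction and their side of the threshold, 84 turned in sign and 5 passed a threshold that they had missed. A missing adjusted p was counted as not called.

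For the MYBPC3 deletion against nontransgenic hearts, females alone gave -0.61 for Acta2, -1.48 for Myh11, -1.58 for Tagln, -2.10 for Cnn1, -0.23 for Smtn, -0.83 for Mylk, -1.55 for Lmod1 and -1.35 for Actg2. Leaving out 1 library at a time gave -0.42 to 1.60 for Myh11, -0.29 to 2.47 for Cnn1, -0.15 to 0.16 for Smtn, -0.14 to 0.66 for Mylk and -0.30 to 2.22 for Lmod1. The number of genes called was 1 in males alone, 92 with DESeq2 and 20 with DESeq2 on 2 groups without a sex term, against 0 with edgeR.

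For the HRC variant against nontransgenic hearts, all values of the 8 genes lie near 0 and the sign turned often. Females alone gave -0.53 for Acta2, -0.88 for Cnn1, -0.33 for Mylk and -0.72 for Lmod1. Cnn1 gave -0.09 without the sex term, -0.02 with DESeq2 and -0.08 with DESeq2 on 2 groups. Myh11 gave 0.00 at a minimum count of 50, and with the atrial level added Myh11 gave 0.39, Tagln 0.42 and Actg2 0.00. Leaving out 1 library at a time gave -0.54 to 1.77 for Acta2, -0.72 to 2.38 for Myh11, -0.86 to 3.06 for Tagln, -0.89 to 3.70 for Cnn1, -0.33 to 1.18 for Mylk, -0.72 to 3.07 for Lmod1 and -1.29 to 2.59 for Actg2. Genes called were 25 with DESeq2, 17 with DESeq2 on 2 groups, and 0 to 8 when 1 library was left out, the 8 without HRC variant replicate 1.

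For compound against nontransgenic hearts, leaving out 1 library at a time gave -1.46 to 0.84 for Acta2, -1.47 to 1.64 for Myh11, -2.12 to 1.80 for Tagln, -3.20 to 1.39 for Cnn1, -0.21 to 0.19 for Smtn, -0.64 to 0.87 for Mylk, -2.04 to 1.75 for Lmod1 and -2.26 to 1.62 for Actg2, the positive values all without nontransgenic replicate 3. With the atrial level added, Acta2 gave 0.13, Myh11 0.38, Tagln 0.30, Cnn1 0.16 and Mylk 0.31. Genes called were 38 with DESeq2, 456 with DESeq2 on 2 groups (1 of the 8) and 0 to 3 with 1 library left out.

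For compound hearts against the MYBPC3 deletion, females alone gave 0.02 for Myh11, 0.01 for Smtn and 0.20 for Mylk, and Mylk gave 0.12 with the atrial level added. Leaving out 1 library at a time gave -3.07 to 0.04 for Myh11, -0.37 to 0.03 for Smtn and -1.30 to 0.21 for Mylk. Genes called were 6 with DESeq2 and 816 with DESeq2 on 2 groups (3 of the 8). Against the HRC variant, Mylk gave 0.01 with the atrial level added, and genes called were 45 with DESeq2, 75 with DESeq2 on 2 groups (1 of the 8) and 0 to 13 with 1 library left out. In the interaction, females alone gave 0.73 for Myh11, 0.32 for Tagln, 0.52 for Mylk, 0.23 for Lmod1 and 0.38 for Actg2, and genes called were 50 with DESeq2 and 0 to 5 with 1 library left out.

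A replicate block was fitted because the groups share replicate numbers, although the labels do not say that these numbers pair the libraries. The correlation of same-numbered libraries' deviations from their group means ran from -0.24 to 0.316, over 0.1 in 5 of 18 pairs. With 3 libraries in each group, these values cannot decide whether the libraries are paired. Under the replicate block the HRC variant against nontransgenic hearts gave -0.67 for Cnn1, -0.11 for Mylk and -0.48 for Lmod1, and 1 gene was called in the interaction. Where a value turned, the cause was not tested unless the setting itself removes the libraries named. The low counts of Actg2 and Cnn1, down to 11 and 23 reads, limit what can be seen of them.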
